A study of Mus musculus with 206 samples.

Results

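The regions described here carried the acetylation mark H3K27ac in neuronal nuclei of the mouse prefrontal cortex (PFC) and striatum, and lay outside every region listed for the hippocampus or the hypothalamus. They were selected by position: a region of the authors' consensus list for PFC was kept if it shared at least 1 bp with a region of the striatum consensus list and none with a region of the hippocampus or hypothalamus list. This rule kept 5697 of the 18272 PFC regions (31.2%), out of 108274 regions in all 4 lists. The PFC regions not kept fell into the 6327 found in all 4 lists, the 3429 shared with striatum and hippocampus, the 2041 shared with striatum and hypothalamus, and smaller classes such as the 394 found in PFC alone and the 364 shared with the hippocampus alone.

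H3K27ac was mapped by MOWChIP-seq, a microfluidic chromatin immunoprecipitation, in about 10000 nuclei per library sorted for the neuronal protein NeuN from wild-type C57BL/6NTac mice of both sexes. Saline controls (SAL) were set against mice exposed to morphine (MOR) before and after birth, through a minipump in the dam at 10 mg/kg/day during gestation and through injections of 10 mg/kg into the pup 2 times a day from postnatal day 1 to 14. As adults, the animals received saline or lipopolysaccharide (LPS), a bacterial cell wall component that triggers innate immunity, and tissue was taken 2 h later, which gave SAL-SAL controls, a MOR-SAL group, a SAL-LPS group and a MOR-LPS group (perinatal treatment first, adult challenge second). Each animal gave 1 library per brain region, and the libraries compared were 42 of PFC (14 MOR-LPS, 11 SAL-LPS, 9 MOR-SAL and 8 SAL-SAL) and 45 of striatum (15, 13, 7 and 10 in the same order), beside 44 of hippocampus and 41 of hypothalamus. Morphine was given at the level of the dam and litter, and pups of 1 litter are not independent of each other. The sequencing kit was xGen 2S for PFC and ThruPLEX for striatum, hippocampus and hypothalamus, and its part in any contrast of PFC with another tissue cannot be told apart from that of the tissue.

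H3K27ac marks the nucleosomes beside active promoters and active enhancers, the distal elements that drive transcription of a gene in a given cell type. Promoters of genes that every cell uses carry the mark widely, whereas enhancer acetylation differs strongly between neuron types. Most neurons of the striatum are GABAergic projection neurons with either the D1 or the D2 dopamine receptor, and their identity depends on transcription factors such as Meis2, Foxp1, Rarb and the Dlx family. Most neurons of the PFC are glutamatergic, with a minority of GABAergic interneurons that share the Dlx factors and the GABA-producing enzymes. A region acetylated in both tissues can therefore belong to different cells in each.

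To show what these regions are in sequence, 250 bases around the median peak summit are given for 7 of them, read from the mm10 reference (GRCm38), plus strand, 5′ to 3′. Capitals mark matches to 4 short motifs searched on both strands, namely TGACAG (the letters bound by MEIS and TGIF proteins), CAGATG (an E-box of neuronal bHLH factors), TAATTA (the homeodomain core, which Dlx proteins bind) and TGTTTAC (forkhead, the family of Foxp1). TGACAG and CAGATG can share their letters CAG, and no window printed here holds both. The first is shown as a distal region, inside Slc22a23, among the 10 members most often strong in both tissues. The next pair, an intron of the phosphodiesterase gene Pde10a and the Meis2 promoter, belongs to genes of striatal projection neurons.

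Slc22a23 intron, chr13:34214551-34214800: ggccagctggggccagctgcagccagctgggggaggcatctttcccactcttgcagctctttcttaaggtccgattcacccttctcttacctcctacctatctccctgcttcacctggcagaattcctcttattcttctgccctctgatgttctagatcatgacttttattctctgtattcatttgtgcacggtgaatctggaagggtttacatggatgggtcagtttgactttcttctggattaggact
Pde10a intron, chr17:8729125-8729374: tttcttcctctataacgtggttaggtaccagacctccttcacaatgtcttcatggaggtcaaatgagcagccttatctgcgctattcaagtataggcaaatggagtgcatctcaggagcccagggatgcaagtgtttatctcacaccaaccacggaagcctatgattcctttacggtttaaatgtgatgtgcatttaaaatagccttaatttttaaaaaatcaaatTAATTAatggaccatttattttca
Meis2 promoter, chr2:116063036-116063285: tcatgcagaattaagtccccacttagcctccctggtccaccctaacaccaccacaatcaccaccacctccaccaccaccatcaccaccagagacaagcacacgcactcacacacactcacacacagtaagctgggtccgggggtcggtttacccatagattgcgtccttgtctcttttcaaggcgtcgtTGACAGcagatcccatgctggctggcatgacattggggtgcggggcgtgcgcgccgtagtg

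Another pair belongs to GABAergic genes, the region between Dlx5 and Dlx6 and the promoter of Gad2, which encodes a GABA-synthesizing enzyme. The last pair shows the other kinds of member, a widely acetylated promoter at Klhdc4 and an intergenic region near Fosb, a member of the Fos family of immediate early genes.

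Dlx5 to Dlx6 interval, chr6:6875201-6875450: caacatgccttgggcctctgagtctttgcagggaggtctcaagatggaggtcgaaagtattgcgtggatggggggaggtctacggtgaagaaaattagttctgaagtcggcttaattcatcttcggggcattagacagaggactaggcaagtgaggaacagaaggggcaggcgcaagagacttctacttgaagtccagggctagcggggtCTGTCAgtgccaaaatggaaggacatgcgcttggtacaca
Gad2 promoter, chr2:22624121-22624370: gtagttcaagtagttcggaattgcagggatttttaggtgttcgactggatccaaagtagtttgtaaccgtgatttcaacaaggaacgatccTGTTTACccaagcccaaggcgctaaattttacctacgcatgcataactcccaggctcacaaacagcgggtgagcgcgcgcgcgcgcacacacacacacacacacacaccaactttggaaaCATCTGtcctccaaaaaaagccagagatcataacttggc
Klhdc4 promoter, chr8:121829740-121829989: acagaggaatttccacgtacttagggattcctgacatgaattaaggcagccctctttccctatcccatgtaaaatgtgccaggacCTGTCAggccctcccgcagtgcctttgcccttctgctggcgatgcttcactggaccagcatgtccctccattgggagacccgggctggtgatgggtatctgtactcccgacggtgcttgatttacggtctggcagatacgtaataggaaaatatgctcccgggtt
Fosb distal region, chr7:19300984-19301233: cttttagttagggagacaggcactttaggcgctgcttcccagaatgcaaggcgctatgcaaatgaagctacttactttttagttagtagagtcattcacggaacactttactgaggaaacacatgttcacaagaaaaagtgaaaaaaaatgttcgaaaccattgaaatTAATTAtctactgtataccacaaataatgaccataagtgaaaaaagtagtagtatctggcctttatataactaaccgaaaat

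Most of the 19 motifs searched occurred in close to the same share of members and of PFC regions at large. In the 200 bases around the summit, TGACAG occurred in 15.3% of the members against 15.5% of all PFC regions, CAGATG in 15.7% against 15.9%, and TGTTTAC in 2.53% against 2.70%. TAATTA occurred in 4.72% against 4.25%, the octamer ATGCAAAT bound by POU factors in 1.40% against 1.01%, and the AP-1 site TGAGTCA in 3.55% against 3.65%. These shares pool promoter and distal regions. Among promoters, the motif of ETS factors occurred in 6.02% of members against 3.82% of all PFC promoters, and among distal regions in 0.714% against 1.01%. The octamer occurred in 1.67% of distal members against 1.16% of all distal PFC regions, and in 0.669% against 0.663% of promoters. A match of letters is a description and not a binding site.

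Distal elements made up most of the set. Of the 5697 members, 4203 (73.8%) lay more than 1 kb from any protein-coding transcription start site (TSS), with 2472 in introns, 128 over exons and 1603 between genes, and 1494 (26.2%) were promoters. Among the regions found in all 4 lists, 40.0% were promoters. The distal members sat at a median of 25285 bp from the nearest start site, and 1291 members had none within 100 kb. The median member was 3068 bp wide (range 457 to 18295), against 4060 bp for the regions of all 4 lists, and 61 members (1.07%) exceeded 10 kb against 451 (7.13%) of that class. Promoter members were narrower than distal members, with medians of 1994 and 3394 bp, and richer in GC (49.6% against 43.0%). Their observed-to-expected ratio of CpG dinucleotides was 0.564 against 0.196 in distal members.

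Chromosome X held more members than its share of PFC regions. There 117 of the 196 PFC regions (59.7%) were members, against 5580 of 18076 (30.9%) on the autosomes, where the share per chromosome ran from 23.2% on chromosome 11 to 35.6% on chromosome 13. The lists themselves differed on X: it carried 1.07% of the PFC regions and 1.17% of the striatum regions, but 0.457% of the hippocampus and 0.413% of the hypothalamus regions. Members on X had any peak in a median of 43.2% of the hippocampus libraries, against 38.6% for autosomal members. Promoters, which held peaks more widely, made up 51 of the 117 X members. Among strong peaks the X members were lower. In hippocampus a median of 4.27% of them was reached in female libraries and 2.56% in male libraries, against 6.85% and 5.14% of autosomal members. In PFC, a median of 21.4% of the X members fell among the strongest peaks of a female library (n = 22) and 18.8% in a male library (n = 20), and the ranges overlapped. For autosomal members these PFC medians were 27.6% and 29.9%.

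The label of these regions was then checked in the peak lists of the single libraries. A consensus list keeps regions that recur across samples and pass a read filter, so a region missing from it can still hold peaks. The median member had a peak in 81.0% of the PFC libraries, 66.7% of the striatum, 38.6% of the hippocampus and 29.3% of the hypothalamus libraries, and these values are those the rule used in part, so no test was made. The label held for distal members far better than for promoters: promoter members had peaks in a median of 90.5%, 64.4%, 59.1% and 58.5% of the libraries in that order, and distal members in 78.6%, 66.7%, 31.8% and 22.0%. A peak was present in at least 50% of the hippocampus or of the hypothalamus libraries at 1209 promoter members (80.9%) and at 1294 distal members (30.8%). Conversely, 976 distal members (23.2%) and 50 promoter members (3.35%) had peaks in under 20% of the libraries of both. On the striatum side, 1185 members had a peak in under 50% of the striatum libraries, and that consensus list, with 60013 regions, was far longer than the PFC list. So the set is described here as regions listed for PFC and striatum, and not as regions inactive elsewhere.

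**Figure D1:**
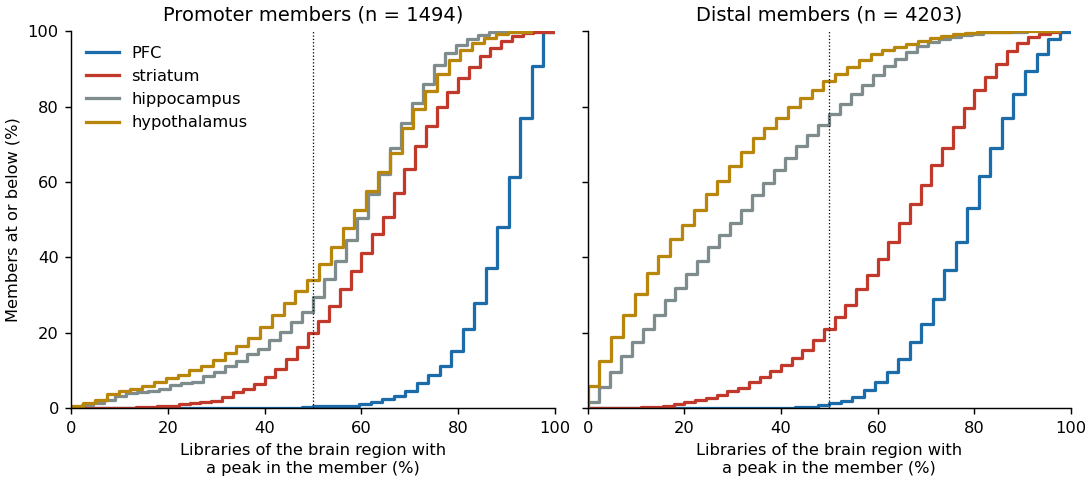
Cumulative percentage of promoter members (n = 1494) and distal members (n = 4203) on the y axis against the percentage of libraries with any peak in the region on the x axis, 1 line per brain region. The lines of hippocampus and hypothalamus stand far to the left for distal members, with medians of 31.8% and 22.0% of libraries, and close to the striatum line for promoter members, with medians of 59.1% and 58.5%.

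Among strong peaks PFC and striatum again stood above hippocampus and hypothalamus, but the hypothalamus value was no longer below that of hippocampus. Counting only the 10000 strongest peaks of each library by the MACS2 p-value, the median distal member was reached in 16.7% of the PFC, 15.6% of the striatum, 2.27% of the hippocampus and 2.44% of the hypothalamus libraries. For promoter members the values were 40.5%, 17.8%, 9.09% and 14.6%.

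The edge of the rule is described by the following values, with no test. The smallest overlap of a member with the striatum list was 85 bp, and striatum regions covered a median of 96.0% of a member. A total of 402 members lay within 1 kb of a hippocampus or hypothalamus region, the nearest 3 bp away. The 37 members within 100 bp of such a region had peaks in a median of 83.3% of PFC, 68.9% of striatum, 54.6% of hippocampus and 31.7% of hypothalamus libraries, and the 17 regions left out for an overlap of under 100 bp had 73.8%, 60%, 40.9% and 29.3%.

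Most genes with members had a single one. By nearest TSS within 100 kb, 4406 members were assigned to 3073 genes, of which 2334 had a single member and 66 had 5 or more. Foxp1, a forkhead factor of striatal projection neurons and of deep cortical layers, had the most, with 24 of its 33 PFC regions spread over 553.6 kb of chromosome 6 (chr6:98926895-99480520), all within the gene. Phactr1, a regulator of actin and protein phosphatase, followed with 13 of 26. Meis2, a homeodomain factor expressed in striatal projection neurons, had 12 of 13, with 81.9 kb of its 107.9 kb span (chr2:115959635-116067524) inside members. Celf2, a splicing regulator, had 12 of 49. Rarb, a retinoic acid receptor that acts in striatal development, had 11 of 12, and Adcy5, the main adenylyl cyclase of the striatum, had 11 of 18. The remaining genes of the first 10 were Nrxn3 (11 of 19), which encodes a presynaptic adhesion protein, the calcium pump gene Atp2b1 (11 of 18), the synaptic scaffold gene Dlg2 (10 of 21) and the splicing factor gene Rbfox1 (10 of 26).

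The members at these loci differed in how often the other brain regions held a peak there. The median Meis2 member had a peak in 91.7% of the PFC and 75.6% of the striatum libraries, but in 7.95% of hippocampus and 2.44% of hypothalamus libraries. At Foxp1 the medians were 79.8%, 72.2%, 20.4% and 8.54%, and at Rarb 78.6%, 75.6%, 11.4% and 7.32%. At Celf2 they were 71.4%, 54.4%, 46.6% and 15.8%, and at Dlg2 76.2%, 63.3%, 61.4% and 35.4%. The rule chose these members by their absence from the hippocampus and hypothalamus lists, so the values describe the members and not the whole loci. Foxp1 also had 9 PFC regions that were not members, of which 1 was in all 4 lists, 6 were shared with the hippocampus and 2 with the hypothalamus.

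Of 18 gene lists, those of striatal and GABAergic neurons held the highest shares of members among lists with at least 20 PFC regions. Genes of striatal projection neurons had 111 members among their 173 PFC regions (64.2%), at 25 of 30 genes and with 21 promoters, and GABAergic and interneuron genes had 18 of 25 (72.0%), both against 31.2% of all PFC regions. Genes of cortical projection neurons had 5 of 47 (10.6%), opioid and endocannabinoid genes 11 of 70 (15.7%), immediate early genes 8 of 59 (13.6%) and glucocorticoid-induced genes 5 of 37 (13.5%). Glutamate receptor and scaffold genes had 30 of 149 (20.1%), potassium channel genes 35 of 179 (19.6%), synaptic adhesion genes 47 of 142 (33.1%), hippocampus markers 4 of 19 and inflammation genes 3 of 12. Of the glial and vascular lists, oligodendrocyte markers had 3 of 21, astrocyte markers 7 of 17 and endothelial markers 2 of 5. Neuron markers, mostly genes used by all neurons, had 8 of 65 (12.3%), thalamus markers 2 of 2, and no PFC region was assigned to microglia or hypothalamus markers. These shares are descriptions, because the rule chose the members by the brain regions in which such genes are active.

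**Figure D2:**
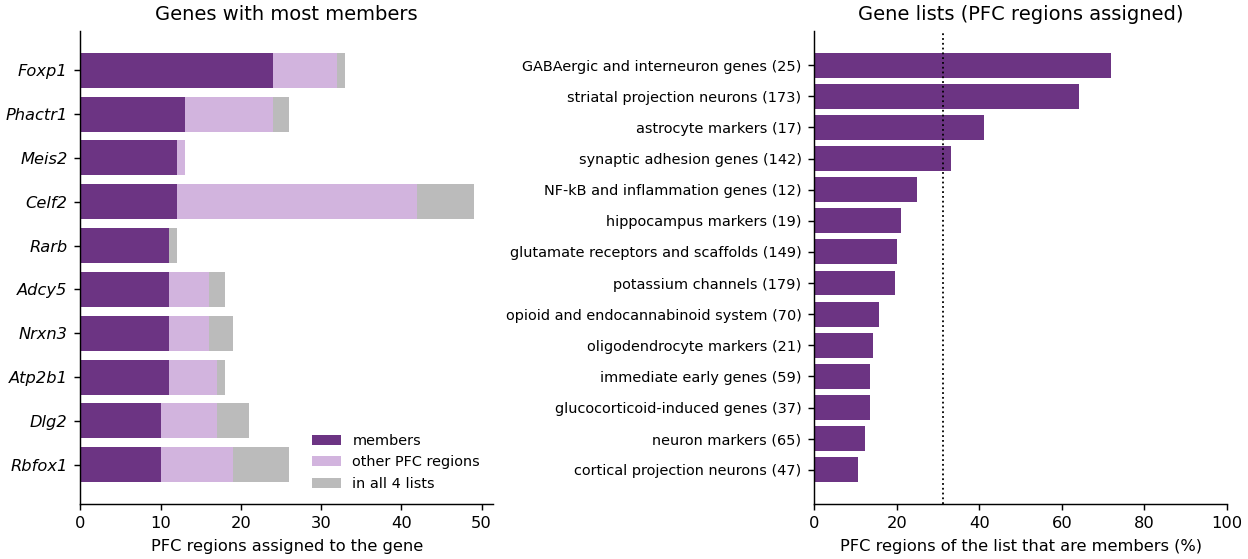
Left, number of PFC regions of each of the 10 genes with the most members, split into members, regions of all 4 lists and other PFC regions. Right, percentage of the PFC regions of 14 gene lists (their number in parentheses) that were members, with the dotted line at 31.2% for all PFC regions. Meis2 (12 of 13) and Rarb (11 of 12) consist almost wholly of members, and the striatal list (64.2%) stands above the cortical list (10.6%).

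The promoters of receptors and signaling genes of striatal projection neurons illustrate the set, and their levels are given as percentile ranks. A rank of 0 to 100 places a region among all 18272 PFC regions of 1 library by the p-value of its strongest peak, and regions without a peak share 1 rank within a library. That shared rank is higher where fewer of these regions hold a peak in a library. It ran from 0.0219 to 49.8 in PFC (median 6.15) and from 3.00 to 40.5 in striatum (median 13.1), so low ranks partly reflect a library's peak list. The value of 49.8 came from the MOR-SAL library 13-1, described below, whose full peak list reached 0.544% of the members. Nearly all regions of 13-1 thus entered the PFC MOR-SAL group near the middle of the scale although they held no peak. The promoter of Drd1, the D1 dopamine receptor gene (chr13:54047198-54056858), ranked at 38.3, 84.5 and 98.4 (lowest, median and highest library) in PFC, at 19.9, 70.7 and 98.5 in striatum and at 11.9, 31.9 and 76.2 in hippocampus. It was among the 10000 strongest peaks in 35 of 42 PFC, 24 of 45 striatum, 0 of 44 hippocampus and 2 of 41 hypothalamus libraries. This wide region was thus high in most PFC libraries and in over 50% of the striatum libraries, low in most others, and the ranges overlapped. Within 1 kb of a Drd1 TSS, a peak was that strong in fewer libraries: 29 PFC, 14 striatum, 0 hippocampus and 1 hypothalamus.

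At Adora2a, the adenosine receptor gene of D2-type projection neurons, a 14.8 kb region over the promoter (chr10:75318838-75333669) had a peak in 33 PFC and 28 striatum libraries and in 0 of 44 hippocampus and 0 of 41 hypothalamus libraries. The promoter of Tac1, which encodes substance P of D1-type neurons, had a peak in 30 PFC, 18 striatum, 0 hippocampus and 3 hypothalamus libraries. Regions over markers of both projection neuron types thus held a peak of any strength in most PFC libraries. PFC is not the tissue these genes are known for. Within 1 kb of a TSS, however, a peak was among a library's strongest in only 7 PFC and 2 striatum libraries at Adora2a. At Tac1 this held in 2 PFC and 0 striatum libraries, and at Drd1, as given above, in 29 and 14.

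Not all of these promoters were strong where they were listed. The Drd2 promoter had a peak in 33 PFC and 23 striatum libraries, yet was among the strongest peaks in 3 and 2 of them, with a median rank of 32.8 in PFC and 24.5 in striatum. Penk, the enkephalin gene of D2-type neurons, reached the strongest peaks in 12 PFC and 5 striatum libraries and in none of the hippocampus or hypothalamus libraries. Rgs9, a regulator of G protein signaling downstream of dopamine receptors, had a 14.5 kb promoter region that reached them in 31 PFC, 25 striatum, 3 hippocampus and 3 hypothalamus libraries. Within 1 kb of an Rgs9 TSS, a peak was that strong in 25, 13, 1 and 2 libraries.

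At some of these loci distal members were strong in more libraries than the promoters. A Rarb intron region (chr14:16667107-16672773) was among the strongest peaks in 38 PFC, 29 striatum, 3 hippocampus and 4 hypothalamus libraries, where the Rarb promoter was so in 22, 19, 0 and 4, and the widest member, an 18.3 kb intron region of Meis2 (chr2:116041489-116059783), was so in 33, 25, 3 and 0. The Meis2 promoter shown in sequence was so in 36, 11, 7 and 1, more libraries than the intron region in PFC and fewer in striatum. The Pde10a intron region shown in sequence (chr17:8725980-8731311) was so in 29, 30, 3 and 0 libraries, where its 2 promoter members reached 1 and 1 PFC and 3 and 9 striatum libraries. The Slc22a23 intron region (chr13:34208935-34217794), which lies 45971 bp from the nearest start site, that of Psmg4, was so in 35, 36, 1 and 1.

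Members at GABAergic loci were likewise marked in most PFC and striatum libraries. The region between Dlx5 and Dlx6 (chr6:6873263-6879255) had a peak in all 42 PFC and in 42 of 45 striatum libraries, against 8 of 44 hippocampus and 12 of 41 hypothalamus libraries, and was among the strongest in 30, 35, 1 and 2. The Gad2 promoter (chr2:22621748-22630211) ranked at 23.3, 76.5 and 99.9 in PFC, at 19.3, 69.5 and 96.0 in striatum and at 3.42, 16.8 and 87.8 in hippocampus. It had a peak in 42, 41, 4 and 16 libraries. Gad2 is active in neurons of all these tissues, so a low level in a list of NeuN+ nuclei is a statement about these libraries and not about the gene.

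Members of stress, opioid and immune genes were few. Opioid and endocannabinoid members had a peak in a median of 27.3% of hippocampus and 29.3% of hypothalamus libraries, immediate early members in 62.5% and 56.1%, glucocorticoid-induced members in 54.5% and 26.8% and inflammation members in 63.6% and 17.1%, against 38.6% and 29.3% for all members. The Fosb region shown in sequence (chr7:19300424-19302371) was among the strongest peaks in 33 PFC, 26 striatum, 5 hippocampus and 6 hypothalamus libraries, but the Fosb promoter member with the most PFC libraries (chr7:19307757-19308673) was so in 35, 12, 23 and 9. A region 45388 bp from Dusp6, a phosphatase of the MAP kinase pathway, was so in 32, 13, 3 and 1. The promoter of Oprm1, the mu opioid receptor gene on which morphine acts (chr10:6788501-6791476), ranked at 5.99, 35.6 and 75.5 in PFC, at 8.03, 31.4 and 90.4 in striatum and at 13.4, 74.3 and 97.6 in hypothalamus. It was among the strongest peaks in 20 of 41 hypothalamus libraries, more than the 5 of PFC and the 6 of striatum, and so goes against the label. Near Oprd1, the delta opioid receptor gene, a region 31123 bp away was so in 13 PFC, 20 striatum, 1 hippocampus and 5 hypothalamus libraries. A region 8566 bp from the cytokine gene Il1b was so in 28, 9, 10 and 1, and the promoter of Tnip1, an inhibitor of NF-kB signaling, in 12, 11, 9 and 9.

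The members most often strong in both tissues had peaks in the other brain regions as well. The 10 with the highest smaller share of PFC and striatum libraries reached 75.6% to 82.2%, and 7 of them were promoters, at Nbr1, Vps35l, Wbp11, Calm3, Nup85, Lsg1 and Klhdc4. The others were introns of Tex14, Cped1 and Slc22a23. Peaks were present at 9 of these 10 in at least 50% of the hippocampus libraries and at all 10 in at least 50% of the hypothalamus libraries. The promoter of Nbr1, an autophagy receptor gene, was among the strongest peaks in 41 PFC, 35 striatum, 27 hippocampus and 30 hypothalamus libraries, and that of Calm3, a calmodulin gene, in 39, 35, 24 and 23. Promoters were not the majority in the wider group: of the 285 members with a smaller share of at least 50%, 101 were promoters, 182 had a peak in at least 50% of hippocampus or hypothalamus libraries, and 25 had one in under 20% of both.

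Within the set, promoters leaned to PFC and distal members were split more evenly between the tissues. The share of libraries in which a member was among the strongest peaks was higher in striatum at 2151 members, 1950 of them distal and 201 promoters. The members with the largest differences toward PFC were the promoters of Phrf1 (38 of 42 PFC and 0 of 45 striatum libraries), Dpm1 (39 and 4), Armc6 (36 and 2), Cstf1 and Larp7. Those toward striatum were distal, near Sec22a (9 PFC and 32 striatum libraries), in introns of Mbp (10 and 31), B3gnt2 (3 and 23) and Hecw2 (5 and 24), and near Lemd2 (7 and 27). Mbp encodes a myelin protein of oligodendrocytes. Whether the brain region or the library kit moved these shares cannot be told apart.

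Libraries of the same tissue differed widely in how many members were among their 10000 strongest peaks. In PFC the share was 0.474% in the lowest, 27.7% in the median and 40.4% in the highest library, and in striatum 7.02%, 19.6% and 38.5%. In hippocampus it was 2.48%, 5.56% and 13.2%, and in hypothalamus 3.81%, 7.79% and 13.5%. Distal members ran from 0.405% to 41.1% in PFC (median 20.4%) and from 3.14% to 45.6% in striatum (median 19.3%), and promoter members from 0.669% to 57.7% (median 41.3%) and from 10.1% to 38.8% (median 21.8%). The lowest PFC value came from the MOR-SAL library 13-1, which held 11306 peaks, and without it the PFC range was 15.3% to 40.4% with a median of 27.7%. The full list of 13-1 reached 0.544% of the members, where the striatum library SAL-LPS 4-0, with 10811 peaks, reached 9.18%. Its 10000 strongest peaks held 0% of the neuron and 0% of the microglia marker promoters, but promoters of every other marker list. They held 56.25% of the hypothalamus, 50% of the thalamus, 41.67% of the astrocyte and 40% of the hippocampus promoters. The shares were 27.27% for cortical and 26.67% for striatal projection neurons, 25% for endothelial and 17.65% for oligodendrocyte promoters. Library 13-1 was kept in the PFC fits, and the reason for its values was not tested. By treatment group, the distal share in PFC had medians of 26.4% in SAL-SAL, 25.7% in MOR-SAL, 27.7% in SAL-LPS and 15.1% in MOR-LPS, with a range of 5.16% to 32.3% in MOR-LPS and of 13.9% to 40.5% in SAL-LPS. In these MOR-LPS libraries a mean of 11.3% of the oligodendrocyte promoters and 33.3% of the striatal projection neuron promoters were among the strongest peaks, against 2.14% and 45.5% in these SAL-LPS libraries, and their part in the distal share was not tested. In striatum the medians were 27.3%, 19.1%, 20.2% and 18.5% in that order, and all groups overlapped in both tissues.

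**Figure D3:**
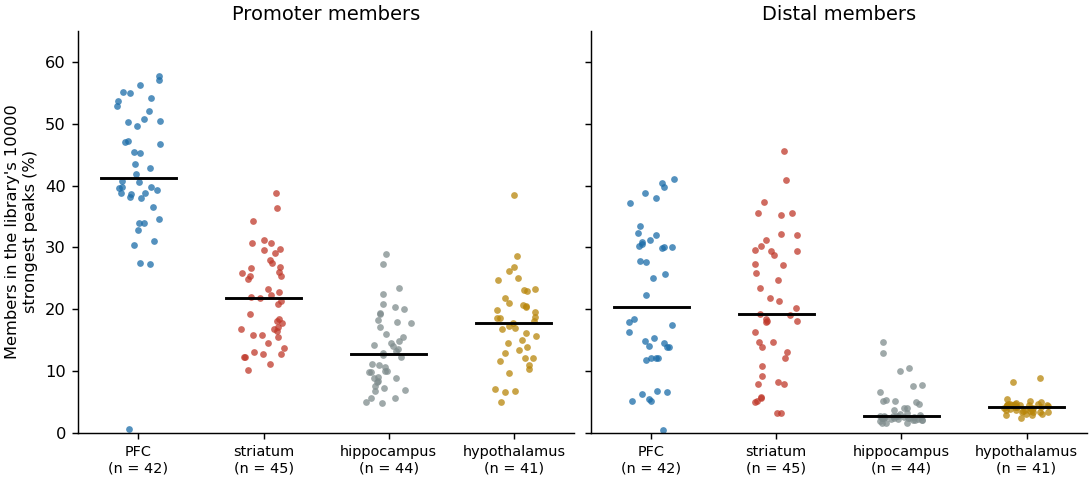
Percentage of members among the 10000 strongest peaks of each library (y axis), with promoter and distal members in separate panels, 1 point per library in each brain region and a bar at the median. Distal members span 0.405% to 41.1% in PFC and 3.14% to 45.6% in striatum, against medians of 2.65% in hippocampus and 4.09% in hypothalamus.

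This variation in distal members followed the promoters of striatal genes. The share of the 30 striatal projection neuron promoters among a library's strongest peaks was 13.3%, 40% and 76.7% (lowest, median, highest) in PFC and 3.33%, 30% and 70% in striatum. Across the 42 PFC libraries it correlated with the share of distal members not assigned to any marker gene at r = 0.835 (Spearman's rho 0.849), and across the 45 striatum libraries at r = 0.808 (rho 0.820). Without the 2 libraries farthest from the median the values were 0.844 and 0.802, and within PFC treatment groups r ran from 0.771 to 0.918. In striatum it was 0.926 in SAL-SAL, 0.775 in SAL-LPS, 0.913 in MOR-LPS and 0.271 in the 7 MOR-SAL libraries. Both shares come from the same list of 10000 peaks in each library, so these are descriptions. For promoters of cortical projection neurons r was -0.386 in PFC and 0.337 in striatum, and for oligodendrocyte promoters -0.457 and -0.493. The PFC libraries richest in distal members were thus those richest in striatal gene promoters, and whether the dissected PFC punch held striatal tissue to a varying degree was not tested. In the 26 animals with both libraries, the distal share in PFC did not track that in striatum (r = -0.00893, rho 0.0527).

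**Figure D4:**
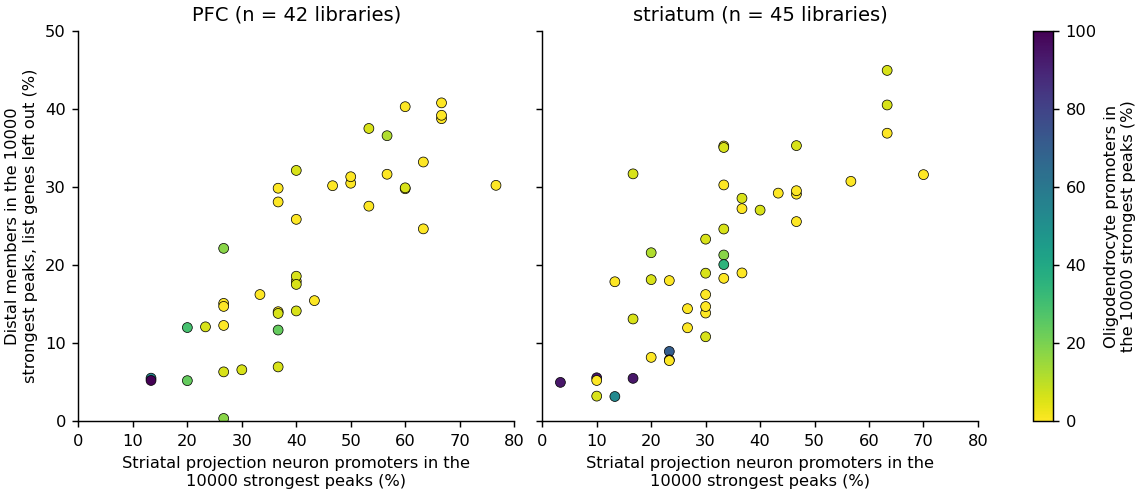
Percentage of distal members outside marker genes among each library's 10000 strongest peaks (y axis) against the percentage of the 30 striatal projection neuron promoters among them (x axis), 1 point per library, colored by the percentage of oligodendrocyte promoters. The points rise together in PFC (n = 42, r = 0.835) and striatum (n = 45, r = 0.808), and the libraries with over 50% of the oligodendrocyte promoters sit at the bottom.

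Oligodendrocyte promoters set some libraries apart although all were sorted for NeuN. Over 50% of 17 such promoters were among the strongest peaks in 2 PFC libraries (SAL-SAL 9-4 and MOR-LPS 14-4) and in 6 striatum libraries (SAL-SAL 9-4 and MOR-LPS 7-1, 14-4, 15-3, 16-0 and 16-2). In these 6 striatum libraries distal members reached 3.14% to 9.14% and promoter members 24.97% to 38.8%, where the remaining 39 striatum libraries had a median distal share of 21.8% (range 3.19% to 45.6%). The striatum groups overlapped in this marker share but differed in spread: it ran from 0% to 94.1% in MOR-LPS (mean 29.8%), from 0% to 35.3% in SAL-LPS (mean 5.88%), from 0% to 5.88% in MOR-SAL and from 0% to 94.1% in SAL-SAL. All 17 promoters were found in at least 1 MOR-LPS library, and 11 of them, Sox10, Olig1, Olig2 and Mobp included, in 0 of 13 SAL-LPS libraries. The treatment comparisons in striatum are given beside these values, and the part of oligodendrocyte chromatin in them was tested only by adding the marker share to the fit or leaving such libraries out.

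The treatment comparisons asked whether perinatal morphine, LPS or their combination changed acetylation at these regions, and no member was called in PFC in this fit. Percentile ranks were compared with limma across all 18272 PFC regions, with sex as a covariate and Benjamini-Hochberg adjustment over all regions at 0.05. In PFC, 0 members were called in MOR-LPS against SAL-LPS, MOR-SAL against SAL-SAL, SAL-LPS against SAL-SAL, MOR-LPS against MOR-SAL and the interaction, where 0% of all PFC regions were called as well. At an unadjusted p under 0.05 the counts in that order were 596 (10.5% of members, against 11.3% of all regions), 164 (2.88% against 2.96%), 399 (7.00% against 6.54%), 466 (8.18% against 7.81%) and 334 (5.86% against 7.07%). The lowest adjusted p of any member in limma was 0.0916, 0.9999, 0.262, 0.104 and 0.544. The median standard error of a member's difference was 8.96 percentile points in the first of these comparisons. Differences of -37.98 (Epb41 promoter, SE 8.74) and 36.6 (Pomt1 promoter, SE 9.23) were not called there. Differences far larger than 1 standard error could thus go uncalled in this comparison. With only peaks of −log10 q of at least 5, 20 members were called in this comparison, with fold enrichment in place of the p-value 3, and with single libraries left out 0 to 5, the 5 without MOR-LPS 18-1. These 3 alternatives are given without the share of all regions called, and nothing is read from them about the members in particular.

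The members with the smallest p in the PFC comparison of MOR-LPS with SAL-LPS show the spread. The Epb41 promoter ranked at 5.99, 21.5 and 63.5 (lowest, median, highest) in 14 MOR-LPS libraries and at 30.4, 63.9 and 86.2 in 11 SAL-LPS libraries, a difference of -37.98 percentile points (SE 8.74, adjusted p = 0.0916 in limma). The Pomt1 promoter ranked at 15.1, 63.2 and 92.2 against 1.505, 20.9 and 49.6, a difference of 36.6 (SE 9.23, adjusted p = 0.0916 in limma). The groups overlapped at both.

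In striatum, members differed between MOR-LPS and SAL-LPS. Of the 5697 members, 89 were called (1.56%), against 1.76% of all PFC regions tested there. In MOR-LPS 72 members ranked higher, where 1.48% of all regions did, and 17 ranked lower, where 0.279% of all regions did, and 48 of the 89 were promoters. A share of called members close to the share over all regions is no result about the members in particular. When every library was reduced to a list of equal length, 7 members were called against 0.186% of all regions, and 5 of the 89 were among them. Leaving out single libraries moved the count between 13 and 269.

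The direction split by position. The median difference was -4.38 percentile points over all members, -7.45 over distal and 11.0 over promoter members, against -1.35 over all PFC regions. The value over all PFC regions is not split by position, so the split is not read as particular to the members. In the same comparison the oligodendrocyte promoter share had a mean of 29.8% in MOR-LPS and 5.88% in SAL-LPS libraries. With this share as a term in the fit 0 of the members were called, and without the 6 libraries over 50% the count was 0 as well. All 89 kept their sign with the term, and their median absolute difference went from 32.6 to 23.7 percentile points.

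Among the members that ranked higher, the first by p was an intron region of Cs, the gene of mitochondrial citrate synthase (chr10:128342492-128346382). It ranked at 4.31, 60.8 and 89.5 in 15 MOR-LPS libraries and at 6.89, 15.7 and 41.6 in 13 SAL-LPS libraries, a difference of 42.05 (SE 7.21, adjusted p = 0.0008 in limma). Its rank was 62.0 to 88.3 in the 5 MOR-LPS libraries rich in oligodendrocyte promoters and had a median of 30.7 in the other 10. It was higher than the SAL-LPS mean in 12 of 15 MOR-LPS libraries, and the groups overlapped. Its SAL-SAL and MOR-SAL medians were 14.4 and 16.3. A peak was present in 11 of 15 MOR-LPS and 2 of 13 SAL-LPS libraries, and with lists of equal length the difference was 24.2 (adjusted p = 0.0423 in limma).

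The promoter of Fbxo28, which encodes a subunit of ubiquitin ligases, ranked at 27.6, 81.0 and 94.2 in MOR-LPS and at 12.0, 38.2 and 86.4 in SAL-LPS, a difference of 46.4 (SE 9.27, adjusted p = 0.00422 in limma). Both subsets of MOR-LPS libraries were high, at a mean of 83.8 in the 5 rich in oligodendrocyte promoters and 69.3 in the other 10, and the difference was 37.6 with lists of equal length (adjusted p = 0.0423 in limma). The Fbxo28 median was 79.3 in SAL-SAL and 65.6 in MOR-SAL, so SAL-LPS was the lowest group. The promoter of 2410002F23Rik differed by 46.7 (SE 8.85, adjusted p = 0.00388 in limma), with means of 76.8 and 67.5 in these subsets against 26.0 in SAL-LPS, and by 27 with lists of equal length (adjusted p = 0.0674 in limma). The promoter of Brox, an endosomal protein gene, differed by 40.6, with means of 70.3 and 48.5 against 19.0, and by 17.0 with lists of equal length (adjusted p = 0.164 in limma). The SAL-SAL and MOR-SAL means were 49.0 and 37.3 at 2410002F23Rik and 41.2 and 32.5 at Brox, between those of SAL-LPS and MOR-LPS. At the E130308A19Rik promoter the difference was 37.7, but the 5 libraries ranked at 83.2 to 99.3 and the other 10 had a median of 27.5, close to the SAL-LPS median of 15.7, and the difference was 17.1 with the marker term and 30.7 with lists of equal length (adjusted p = 0.723 and 0.0423 in limma). The SAL-SAL and MOR-SAL medians there were 16.0 and 16.3.

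The members that ranked lower were distal. The 5 with the smallest p were introns of Tsks, Cdh13 and Brinp1, and intergenic regions of chromosomes X and 3 with no start site within 100 kb. At Cdh13, the gene of an atypical cadherin (chr8:119139491-119141069), MOR-LPS libraries ranked at 13.5, 31.4 and 55.5 and SAL-LPS libraries at 17.1, 64.9 and 96.6, a difference of -34.16 (SE 9.21, adjusted p = 0.0337 in limma). All 15 MOR-LPS libraries lay below the SAL-LPS mean. A peak was present in 2 of the 5 MOR-LPS libraries rich in oligodendrocyte promoters, in 7 of the other 10 and in 11 of 13 SAL-LPS libraries, so that several of the low ranks were those of regions without a peak. With lists of equal length the difference was -26.13 (adjusted p = 0.111 in limma). At Brinp1, an inhibitor of neuronal cell cycle entry (chr4:68787227-68791041), the difference was -27.36 (SE 7.38), with a median of 20.4 in MOR-LPS and 42.3 in SAL-LPS. With lists of equal length it was -11 (adjusted p = 0.216 in limma). A peak was present there in 7 of 15 MOR-LPS and 11 of 13 SAL-LPS libraries. The SAL-SAL and MOR-SAL medians were 53.4 and 27.9 at Cdh13, and 28.0 and 34.6 at Brinp1.

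**Figure D5:**
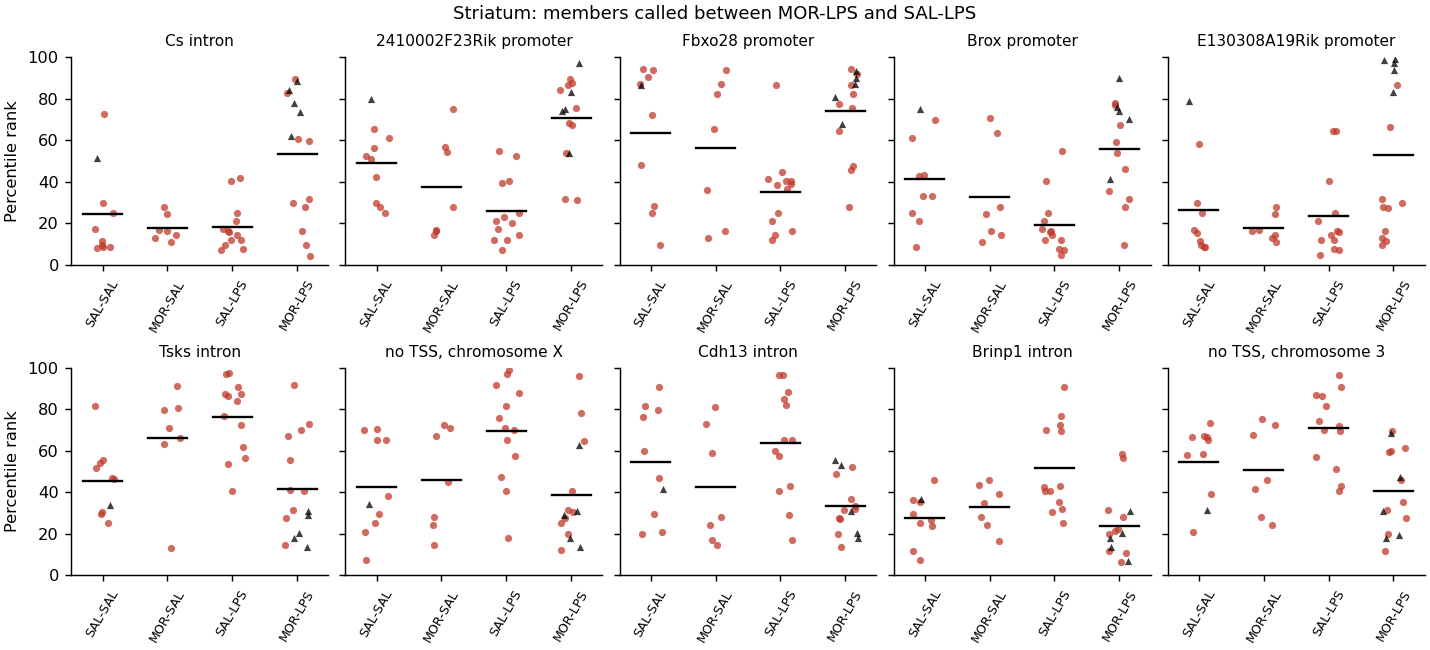
Percentile rank (y axis, 0 to 100) in each striatum library of the 5 higher and 5 lower called members with the smallest p in MOR-LPS against SAL-LPS, by treatment group, with bars for the mean and black triangles for libraries with over 50% of the oligodendrocyte promoters. The groups overlap in all 10 panels, and the MOR-LPS triangles lie in the upper part of the Cs and E130308A19Rik panels (62.0 and more). At Cdh13 all MOR-LPS points lie at 55.5 or below, and points of libraries without a peak show the rank that such regions share.

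By list, few of these calls fell on genes of the fixed lists. No member of the striatal projection neuron, GABAergic, immediate early or inflammation lists was called in this comparison. In MOR-LPS, 1 of 11 members of the opioid list, 2 of 5 of the glucocorticoid list and 1 of 3 of the oligodendrocyte list ranked higher, and the glutamate list had 1 higher and 1 lower of 30. The striatal list had 0 of 111, against 1.76% of all regions, and nothing is read from counts this small.

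The other striatum comparisons gave fewer calls. For MOR-LPS against MOR-SAL 42 members were called (0.737%, against 0.93% of all regions), of which 27 ranked higher in MOR-LPS, where 0.662% of all regions did, and 15 lower, where 0.268% did. With lists of equal length 1 member was called, against 0.0383% of all regions, and with the oligodendrocyte term 3. Without the libraries rich in oligodendrocyte promoters 0 were called, with the number of peaks as a term 10, and with single libraries left out 7 to 91. The Nbr1 promoter ranked at 31.4, 95.4 and 99.9 in 15 MOR-LPS libraries and at 13.0, 27.9 and 96.8 in 7 MOR-SAL libraries, a difference of 45.2 (SE 8.81, adjusted p = 0.00326 in limma) that was 35.7 with lists of equal length (adjusted p = 0.141 in limma). An intron region 52335 bp from Frmpd2, a scaffold protein gene (chr14:33524143-33526915), ranked at 3.00, 18.2 and 63.8 against 39.2, 81.0 and 94.0, a difference of -53.03 (SE 10.1, adjusted p = 0.00253 in limma). All 15 MOR-LPS libraries lay below the MOR-SAL mean at this region, and its difference was -50.66 with the oligodendrocyte term and -35.47 with lists of equal length (adjusted p = 0.0214 and 0.0929 in limma).

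Without LPS, perinatal morphine gave 0 called members in striatum (0.00547% of all regions were called), with 316 at an unadjusted p under 0.05 (5.55%, against 6.12% of all regions) and a lowest adjusted p of 0.0536 in limma. That lowest value belonged to an intron region 32513 bp from Serbp1, at 38.9, 70.7 and 91.3 in 7 MOR-SAL and 8.03, 22.1 and 82.9 in 10 SAL-SAL libraries, and with lists of equal length its adjusted p was 0.326 in limma. For LPS alone, SAL-LPS against SAL-SAL, 0 members and 0% of all regions were called, with 405 members at an unadjusted p under 0.05 (7.11%, against 6.16% of all regions) and a lowest adjusted p of 0.289 in limma. The interaction, which asks whether the difference between MOR and SAL was different under LPS and saline, called 4 members, all promoters, against 0.0657% of all regions.

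The 4 were the promoters of Nbr1, the respiratory complex gene Ndufb3, the membrane protein gene Tmem50a and the proton pump gene Atp6v1d. At Nbr1 the median rank was 90.3 in SAL-SAL, 27.9 in MOR-SAL, 90.9 in SAL-LPS and 95.4 in MOR-LPS, an interaction of 60.7 (SE 12.0, adjusted p = 0.0148 in limma). The 7 MOR-SAL libraries ran from 13.0 to 96.8, so the low median there was not shared by every library. At Tmem50a the 7 MOR-SAL libraries held no peak, and their ranks of 11.1 to 27.9 are those their regions without a peak share, whereas 9 of 10 SAL-SAL, 7 of 13 SAL-LPS and 13 of 15 MOR-LPS libraries held one. The interaction there was 69.3 (SE 14.5), and 28.3 with lists of equal length (adjusted p = 0.428 in limma). The values at Ndufb3 and Atp6v1d were 65.2 and 66.4, and with lists of equal length 60.9 and 52.3, where Nbr1 had 47.7. A total of 0 members were called with the oligodendrocyte term or in lists of equal length.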

How the data were processed

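H3K27ac was measured by MOWChIP-seq in NeuN+ nuclei of PFC, striatum, hippocampus and hypothalamus. Reads were trimmed by the authors (Trim Galore 0.6.7), mapped to the mm10 genome (Bowtie2 2.4.5, SAMtools 1.15.1) and turned into peaks of each library (MACS2 2.2.7.1) and consensus lists of each brain region (DiffBind 3.10.1). The deposited consensus lists give only region start and end positions. Peak lists as deposited carry 2 significance values of MACS2, −log10 p and −log10 q, a fold enrichment (a ratio over local background) and a score that scales the −log10 q. These score values were read only to describe the files. Read counts per region were not used here, so the authors' DESeq2 model was not repeated and the number of peaks served as the measure of depth.

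Peaks were ranked by −log10 p within each library. A member was counted as strong where it overlapped 1 of the 10000 strongest peaks by 1 bp. Libraries with under 10000 peaks were left out, which removed the PFC SAL-SAL library 9-2 (4371 peaks). The hippocampus SAL-LPS libraries 1-2 and 5-2 were identical and counted as 1. The PFC library labelled MOR-LPS 12-2 holds peaks named for 12-0, and the label was used. Used libraries held up to 143527 peaks, and 32 input libraries were not analysed here. No values of other samples were present (0 columns).

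Percentile ranks of all 18272 PFC regions were fitted with limma 3.58.1 (R 4.3.3, trend, 4 groups and sex), two-sided, with Benjamini-Hochberg adjustment at 0.05, and the script was tested on simulated data. A total of 5 contrasts per tissue were fitted, and p-values measure the spread between animals, which share litters. Other steps used Python 3.11.15, pandas 2.3.3, numpy 2.4.6, SciPy 1.17.1, pysam 0.24.0 and SAMtools 1.23.1. Promoters lay within 1 kb of a protein-coding TSS, and members were assigned to the nearest TSS within 100 kb.

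The regions, gene lists and tests were chosen with earlier results of these data known, and many lists came from that work. The regions named are the 10 genes with most members, the 10 members with the highest smaller share of PFC and striatum libraries, members and promoters of the gene lists (up to 3 others per list), up to 5 called members per direction or the 2 of smallest p, and the 5 with the largest share differences each way. Some of these are not reported here. The alternatives were lists of equal length, other list lengths, fold enrichment, a −log10 q of at least 5, terms for peak number and oligodendrocyte share, other overlap rules, a replicate block, single libraries left out and, chosen after seeing the data, the omission of libraries rich in oligodendrocyte promoters and of PFC library 13-1.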

Additional observations from a re-analysis of the deposited data

Results flagged for a closer look

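A library far from the rest of its group was looked for in 21 combinations of group and share of members, and 3 were found, where chance marks about 1 in 20 groups. In PFC, the MOR-SAL library 13-1 had 0.669% of the promoter members among its 10000 strongest peaks, and the nearest of the other 8 MOR-SAL libraries had 32.9%. In hippocampus, the MOR-LPS library 6-0 had 12.9% of the distal members, and the nearest of its group of 10 had 4.97%. In hypothalamus, the SAL-SAL library 3-2 had 8.16% of the distal members, and the nearest of its group of 8 had 4.93%. A difference between groups was seen at 4 members in striatum, the promoters of Nbr1, Ndufb3, Tmem50a and Atp6v1d, whose MOR-minus-SAL difference was higher under LPS than under saline by the interaction term in limma. They were 0.0702% of the members, against 0.0657% of all regions called, and so no result about the members in particular. With lists of equal length or with the oligodendrocyte term 0 members were called.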

How the results depend on the processing

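The PFC comparisons called 0 members except with fold enrichment as the ranked value (3 in MOR-LPS against SAL-LPS and 2 in MOR-LPS against MOR-SAL), a −log10 q of at least 5 (20 in MOR-LPS against SAL-LPS) and lists of equal length (1 in SAL-LPS against SAL-SAL). In striatum, MOR-LPS against SAL-LPS called 89 members, but 7 with lists of equal length, 140 with fold enrichment, 47 with a −log10 q of at least 5, 0 with the oligodendrocyte term and 0 without the libraries rich in oligodendrocyte promoters. MOR-LPS against MOR-SAL called 42, but 1, 70, 3, 3 and 0 in that order, 10 with a term for peak number and 24 on striatum coordinates. MOR-SAL against SAL-SAL called 0, but 2 with fold enrichment and 1 on striatum coordinates. The interaction called 4, but 0 with lists of equal length, 27 with fold enrichment, 2 with a −log10 q of at least 5, 0 with the oligodendrocyte term, 0 without the libraries rich in oligodendrocyte promoters and 16 when only regions with a peak in 50% of libraries were kept. These counts, and those with single libraries left out, are given without the share of all regions called in the same setting. They show how far the calls moved and are no result about the members in particular. The cause of these changes was not tested.

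Leaving out 1 library at a time gave 13 to 269 called members for MOR-LPS against SAL-LPS in striatum, 7 to 91 for MOR-LPS against MOR-SAL, 1 to 27 for the interaction, 0 to 2 for MOR-SAL against SAL-SAL and 0 to 0 for SAL-LPS against SAL-SAL. In PFC it gave 0 to 1 for MOR-LPS against MOR-SAL, 0 to 5 for MOR-LPS against SAL-LPS (5 without MOR-LPS 18-1) and 0 to 0 for the others. For MOR-LPS against SAL-LPS in striatum, the count was 13 without MOR-LPS 15-3, 17 without 7-1, 18 without 16-2 or 14-4, 20 without 16-0, 41 without 15-1, 192 without 6-0 and 222 without 12-2. It was 24 without SAL-LPS 10-2, 27 without 10-0, 28 without 4-4, 35 without 3-1, 59 without 9-1, 172 without 10-4 and 269 without 5-2, and 137 without SAL-SAL 3-2. For MOR-LPS against MOR-SAL it was 7 without MOR-SAL 7-2, 14 without MOR-LPS 16-2, 15 without 15-3, 16-0 or 7-1 and 91 without MOR-LPS 12-2. The interaction called 1 without MOR-SAL 7-2 and 27 without MOR-LPS 12-2 or SAL-LPS 5-2.

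With the animal identifier's prefix as a replicate block, the striatum counts were 74, 0, 0, 44 and 4 and the PFC counts 0. The correlation within a prefix, pooled over all regions, was 0.0113 in striatum and 0.0336 in PFC, and the numbers were not taken to pair the samples. Each prefix held animals of a single perinatal treatment, so the block lies within the morphine contrast. A low pooled correlation does not show that animals of a litter are independent. Members numbered 5450 if at least 50% of a member had to be covered in striatum and 5295 if no hippocampus or hypothalamus region could lie within 1 kb. The median share of members per library was 27.7% in PFC and 19.6% in striatum with 10000 peaks, 13.8% and 10.0% with 5000, 48.1% and 35.4% with 20000, and 85.4% and 70.5% with all peaks, so levels depend on list length. Without library 13-1, r between distal and striatal marker shares in PFC was 0.837. Ranks of peak p-values are not read counts and compress differences at the top of a list.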

Other observations

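In the 26 animals with both libraries, oligodendrocyte promoters were among the strongest peaks of both tissues in some animals and mainly of striatum in others. Of the 17 promoters, animal SAL-SAL 9-4 had 100% among the strongest peaks in PFC and 94.1% in striatum, and MOR-LPS 14-4 had 52.9% in both. MOR-LPS 15-3 had 17.6% in PFC and 94.1% in striatum, and MOR-LPS 7-1 had 29.4% and 94.1%.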
